A study of Mus musculus with 16 samples.

Results

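Chemokine and cytokine genes were examined as a set of chromatin loci in pancreatic ductal adenocarcinoma cells growing in the pancreas, liver or lungs of mice. The set held 46 genes for secreted or membrane-bound signals of leukocytes, and a peak of accessible chromatin belonged to a gene when the protein-coding start site nearest to its midpoint, within 100 kb, was that of the gene. This rule found 401 of the 136630 nuclear peaks (0.293%), at 43 of the 46 genes. Cxcl11, Cxcl16 and Ccl3 had none. Cxcl11 has no protein-coding start site in the annotation used, the start site of Cxcl16 lay in a peak of 9256 bp assigned to Zmynd15, and the peak nearest to Ccl3 lay 4410 bp away and was assigned to Rpl9-ps1.

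ATAC-seq, in which a transposase cuts open chromatin, was done on 16 samples, each from its own mouse. The KC-shSmad4 cells were lines derived from Ptf1a-Cre pancreatic tumors. They carried the reverse transactivator rtTA3 with mKate2 at Rosa26 and a doxycycline-inducible hairpin against Smad4 linked to GFP. In the Smad4 off groups the female athymic Foxn1nu hosts, which lack T cells, stayed on doxycycline, and 3 pancreas tumors, 2 liver tumors and 3 lung tumors were sampled. In the Smad4 on groups, also of 3, 2 and 3 mice, the drug was withdrawn at week 4 (pancreas), week 5 (liver) or week 6 (lungs) and Smad4 was restored for 14 days by the methods of the study, while the lung columns of the deposited table, of both Smad4 states, name the day after. Every group carried the same alleles, the hairpin included. Cells were placed in the pancreas tail, injected into the spleen to reach the liver, or injected into the tail vein to reach the lungs, so that organ, route and time of growth cannot be told apart. The hairpin acts on RNA, and the accessibility of Smad4 itself is no check of these labels. Cells positive for mKate2 were sorted, and a lower count can mean fewer cells with the site open or less access per cell, which bulk data cannot tell apart.

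Chemokines are small secreted proteins that bind receptors on leukocytes and direct their movement: CXC chemokines of the CXCR2 group attract neutrophils, the inflammatory CC group attracts monocytes, eosinophils and T cells, and homeostatic members place lymphocytes in mucosa and lymphoid tissue. Cytokines such as IL-1, IL-6, LIF and the colony-stimulating factors set the state of epithelial, stromal and myeloid cells. Many of these genes respond to NF-kB and AP-1, and tumor cells of the pancreas are a known source of several of them.

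The sequences that follow belong to promoters and distal sites that the results below turn on: promoters open in liver tumors (Ccl28, Ccl20, Il1a), less open there (Ccl9), more open in metastases (Cxcl2), open mainly in the pancreas (Cxcl14) or lower on Smad4 restoration (Cxcl15), and the middles of a peak near Il12a and a peak near Csf2. The promoters are RefSeq windows on GRCm38.p6, 250 bases before to 30 bases after the start, in the direction of the gene. They are Ccl28 at chr13:119623569-119623848 and Ccl20 at chr1:83116516-83116795, both on the plus strand, Il1a at chr2:129309943-129310222 and Ccl9 at chr11:83578607-83578886, both on the minus strand, Cxcl2 at chr5:90903649-90903928 on the plus strand, Cxcl14 at chr13:56296522-56296801 on the minus strand and Cxcl15 at chr5:90794284-90794563 on the plus strand. The distal stretches are the central 200 bp of Il12a peak 4 at chr3:68662875-68663074 and of Csf2 peak 11 at chr11:54217062-54217261, given on the plus strand. Capitals mark matches, on either strand, to the NF-kB consensus, AP-1 (TGANTCA), RUNX (TGTGGT), KLF (CCNCNCCC) and the interferon response element ISRE.
Ccl28: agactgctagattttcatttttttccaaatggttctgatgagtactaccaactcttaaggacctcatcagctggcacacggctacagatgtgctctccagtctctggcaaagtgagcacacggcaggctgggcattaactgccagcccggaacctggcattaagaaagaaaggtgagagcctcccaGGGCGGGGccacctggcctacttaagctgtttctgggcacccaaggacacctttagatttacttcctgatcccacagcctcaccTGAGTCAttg
Ccl20: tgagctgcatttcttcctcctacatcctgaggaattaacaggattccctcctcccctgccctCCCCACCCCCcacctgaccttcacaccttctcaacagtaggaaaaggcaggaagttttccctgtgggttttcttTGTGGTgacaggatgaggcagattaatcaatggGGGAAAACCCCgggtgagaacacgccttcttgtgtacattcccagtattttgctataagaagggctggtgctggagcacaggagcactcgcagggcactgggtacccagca
Il1a: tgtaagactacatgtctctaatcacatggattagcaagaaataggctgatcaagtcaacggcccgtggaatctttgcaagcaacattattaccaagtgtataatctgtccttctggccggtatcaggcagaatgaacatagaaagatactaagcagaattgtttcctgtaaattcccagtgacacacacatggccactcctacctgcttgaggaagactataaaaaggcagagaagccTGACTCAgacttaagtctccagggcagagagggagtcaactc
Ccl9: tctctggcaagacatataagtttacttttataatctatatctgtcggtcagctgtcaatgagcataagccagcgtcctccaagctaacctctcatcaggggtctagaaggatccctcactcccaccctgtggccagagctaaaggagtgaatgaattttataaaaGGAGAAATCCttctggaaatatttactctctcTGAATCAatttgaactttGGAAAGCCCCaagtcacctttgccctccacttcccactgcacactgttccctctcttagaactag
Cxcl2: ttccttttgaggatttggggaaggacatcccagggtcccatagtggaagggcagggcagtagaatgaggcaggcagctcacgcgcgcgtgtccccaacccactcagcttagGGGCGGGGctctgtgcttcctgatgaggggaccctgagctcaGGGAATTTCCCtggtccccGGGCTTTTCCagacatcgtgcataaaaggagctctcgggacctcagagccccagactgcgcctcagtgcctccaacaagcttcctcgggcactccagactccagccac
Cxcl14: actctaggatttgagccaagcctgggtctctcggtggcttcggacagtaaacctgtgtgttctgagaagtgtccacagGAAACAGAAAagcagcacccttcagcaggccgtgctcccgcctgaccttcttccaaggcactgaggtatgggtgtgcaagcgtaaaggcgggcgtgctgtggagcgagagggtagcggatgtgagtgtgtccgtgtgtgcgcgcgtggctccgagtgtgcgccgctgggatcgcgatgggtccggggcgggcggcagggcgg
Cxcl15: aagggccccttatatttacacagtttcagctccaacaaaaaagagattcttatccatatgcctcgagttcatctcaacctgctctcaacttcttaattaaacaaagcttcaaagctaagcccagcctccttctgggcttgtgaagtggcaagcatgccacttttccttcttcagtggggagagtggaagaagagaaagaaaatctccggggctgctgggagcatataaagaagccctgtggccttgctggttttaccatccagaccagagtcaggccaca
Il12a peak 4: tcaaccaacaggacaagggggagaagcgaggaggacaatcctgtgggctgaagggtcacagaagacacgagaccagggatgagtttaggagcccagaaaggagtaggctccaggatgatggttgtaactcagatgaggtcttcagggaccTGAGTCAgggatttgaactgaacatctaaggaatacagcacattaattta
Csf2 peak 11: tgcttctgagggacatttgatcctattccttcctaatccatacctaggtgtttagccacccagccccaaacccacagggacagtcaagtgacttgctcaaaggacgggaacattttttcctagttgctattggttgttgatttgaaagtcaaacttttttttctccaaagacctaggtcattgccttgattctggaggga
The Ccl28 window held an AP-1 match just after the start and a KLF match. Ccl20 had 2 NF-kB matches that overlap, 1 RUNX match and 2 KLF matches that overlap. Il1a had 1 AP-1 match, and Ccl9 had 2 NF-kB matches and 1 AP-1 match. Cxcl2 had 3 NF-kB matches, of which 2 overlap, and 1 KLF match. Cxcl14 had 1 ISRE match, Il12a peak 4 had 1 AP-1 match, and the Cxcl15 window and the middle of Csf2 peak 11 held none of the 5. Over all 32851 RefSeq promoter windows of 300 bases, 26.8% held an NF-kB match, 7.81% AP-1, 3.44% ISRE, 49.5% KLF and 16.8% RUNX. Of the 34 windows found for 29 of the genes, 19 (55.9%) held NF-kB, 8 (23.5%) AP-1, 2 (5.88%) ISRE, 22 (64.7%) KLF and 7 (20.6%) RUNX. These matches are a description of letters and not of bound factors.

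The loci differed in how many peaks they held. A gene had 1 to 25 peaks, with a median of 8, and Il33 (25), Il15 (24), Csf1 (21) and Il10 (21) had the most. More of the peaks were intergenic than over all peaks (71.3% against 45.6%) and fewer were intronic (18% against 42.2%), and 29 genes had a peak within 1000 bp of their start site. Values below are normalized counts of reads per peak, which compare samples at 1 peak and not different peaks, and peaks are numbered along the chromosome within each gene. A peak was called when its log2 difference by limma was 0.58 or more in size and its p, adjusted over all nuclear peaks, was 0.1 or less. The p-values measure the spread between these mice.

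Recovered totals of 22.5 to 37.5 M reads in nuclear peaks stood behind each sample. Pancreas mouse 3 with Smad4 on stood apart from the others of its group over all peaks (chi-square per degree of freedom 22.0 and 14.9, against 3.72 between mice 1 and 2), as did lung mouse 1 with Smad4 off (19.8 and 17.9, against 8.74). Start-site peaks of 6 tumor epithelium markers (Epcam, Cdh1, Krt8, Krt18, Krt19, Cldn4) were open in every group, with sums from 16700 to 19440 in the pancreas, 18520 to 27800 in the lungs and 42850 to 45450 in the liver with Smad4 off. Of 9 leukocyte markers 7, Ptprc among them, had no peak at the start site, and the sums of the other 2 ranged from 222 to 291 in the pancreas, 291 to 419.6 in the lungs and 460.3 to 796 in the liver. These sums were mostly Cd68 (group means of 241, 351 and 615), while Csf1r was lowest in the liver (22.3, 24.1 and 12.8). The 5 fibroblast markers summed to between 1816 and 2284 in the pancreas, 1050 and 1417 in the lungs and 863 and 904 in the liver, mostly Col1a1 (means of 1337, 950 and 754). The other 4 fell further below the pancreas: Dcn was at 117 in the pancreas, 18.4 in the lungs and 17.3 in the liver, Pdgfra at 64.8, 10.4 and 8.80, Col1a2 at 88.7, 4.65 and 8.34, and Pdgfrb at 423, 256 and 94.8. The 4 endothelial markers summed to between 219 and 251, 240.2 and 856, and 94.74 and 99.97 in the same order, and 5 of 6 markers each of hepatocytes and lung epithelium and 2 of 4 of acinar cells had no such peak. Their part in the differences between organs was not tested.

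With Smad4 off, liver tumors had 88 peaks called higher and 130 called lower than lung tumors, 54.4% of the 401 (all peaks: 49.7%; 22.9% higher and 26.8% lower), and the median log2 fold change was -0.18 against 0.00 over all peaks. Against pancreas tumors the liver had 104 higher and 123 lower (56.6%; all peaks 58.5%, with 26.2% higher and 32.3% lower), with a median of -0.14 against -0.05. Lungs against pancreas gave 41 higher and 35 lower (19%; all peaks 17.3%, with 6.59% higher and 10.7% lower), with a median of 0.13 against 0.03, and 39 calls in all without pancreas mouse 3. The share of peaks called was thus near that of all peaks in each comparison. Lungs against pancreas had 16 higher and 23 lower without pancreas mouse 3. At thresholds of 1 and 0.05 it had 16 higher and 27 lower, so the excess of higher calls was not stable. Correction for GC content gave 124 higher and 117 lower for liver against pancreas, with a median of 0.04 against 0.08 over all peaks. For liver against lungs it gave 94 and 111, with a median of -0.02 against 0.06. The groups did not overlap at 257, 293 and 131 of the 401 peaks in the 3 comparisons (64.1%, 73.1% and 32.7%; all peaks 65.9%, 77.1% and 32.1%). Of the 43 genes, 6 had calls only in the higher direction in liver against lungs (Ccl25, Cx3cl1, Cxcl12, Cxcl2, Il18, Il23a), 12 only in the lower (Ccl2, Ccl4, Ccl5, Ccl7, Ccl8, Ccl9, Ccl11, Ccl17, Cxcl14, Il34, Osm, Tslp), 21 in both and 4 in neither.

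**Figure D1:**
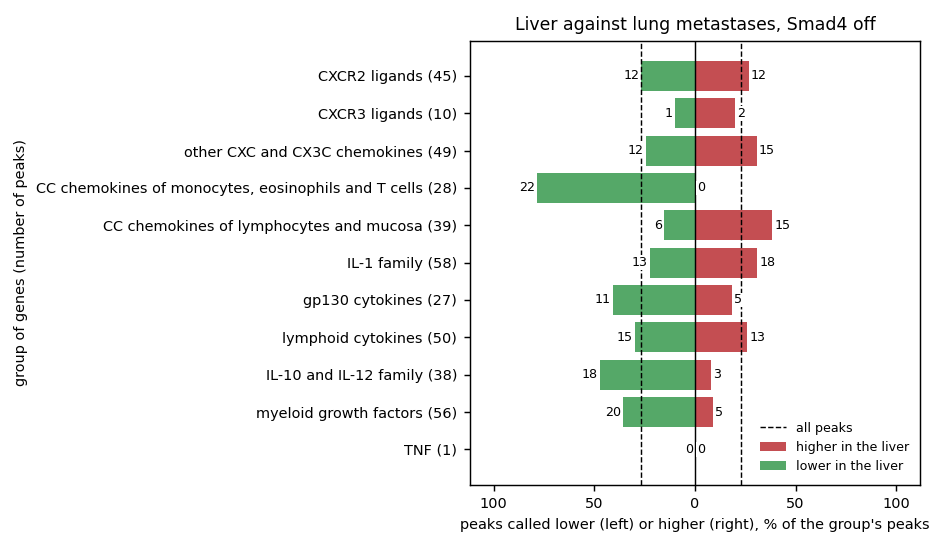
Share of the peaks of each group of genes that was called lower (left) or higher (right) in liver than in lung tumors with Smad4 off, in % of the group's peaks, with counts at the bar ends, the number of peaks in brackets and dashed lines at the shares over all peaks (26.8% lower, 22.9% higher). All 22 called peaks of the inflammatory CC chemokines lie on the lower side, while the mucosal CC chemokines have 15 higher and 6 lower.

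**Figure D2:**
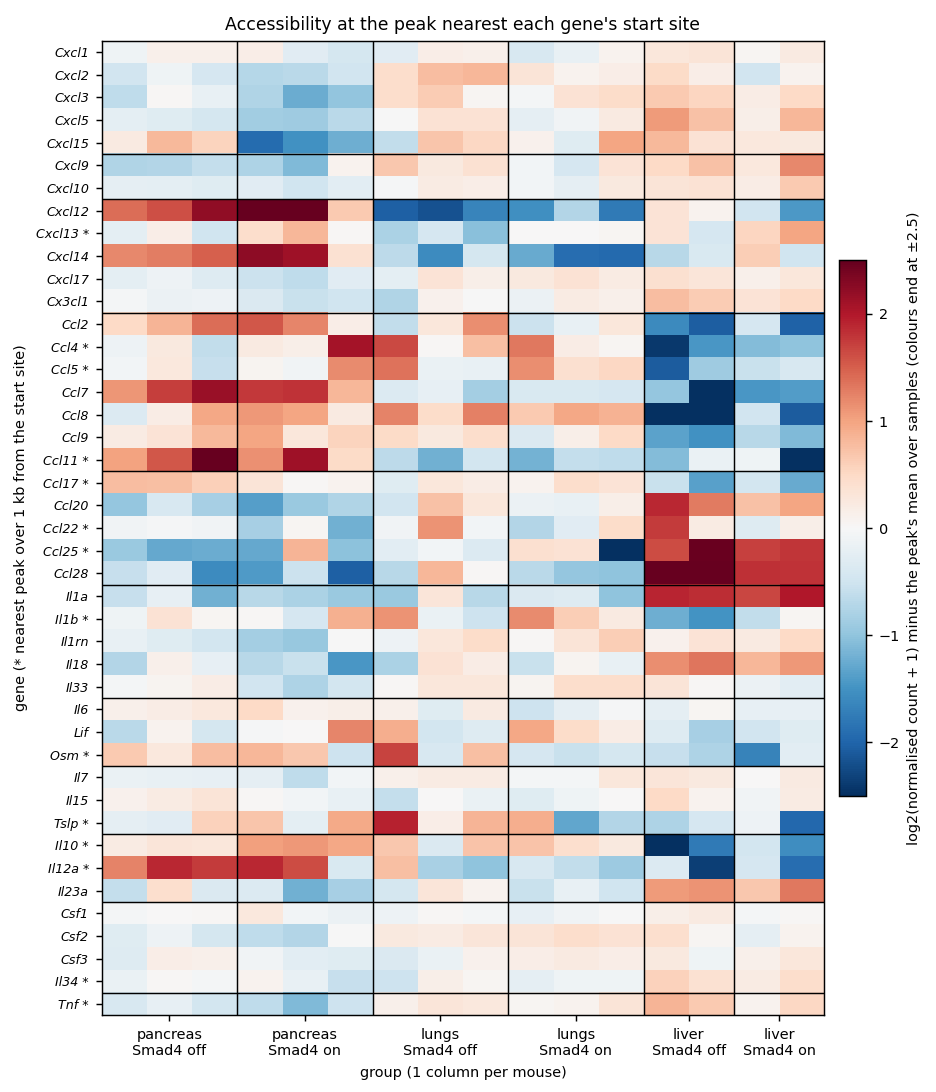
Accessibility at the peak nearest the start site of each of the 43 genes, as log2(normalized count + 1) minus the mean of the peak over the 16 samples, with 1 column per mouse, groups separated by lines and an asterisk where the peak lies over 1 kb from the start. Ccl28, Ccl20, Il1a and Il18 are highest in the liver columns, Ccl2, Ccl7, Ccl8 and Ccl9 have their lowest means there, and Cxcl12 and Cxcl14 have their highest means in the pancreas.

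The CXCR2 ligands, which recruit neutrophils, had 45 peaks. In liver against lungs 12 were called higher and 12 lower (all peaks 22.9% and 26.8%). Liver against pancreas gave 16 and 5 (all peaks 26.2% and 32.3%). Lungs against pancreas gave 10 and 1 (all peaks 6.59% and 10.7%). The promoter peak of Cxcl2, whose sequence is above, had counts of 205, 266 and 214 in the pancreas, 401 and 322 in the liver and 392, 491 and 515 in the lungs. All 3 lung samples and both liver samples lay above the pancreas samples, while liver and lungs overlapped. The log2 difference was 1.03 ± 0.18 (SE), adjusted p 0.0022, for lungs against pancreas and 0.66 ± 0.20 (SE), adjusted p 0.011, for liver against pancreas. The latter call was lost without liver mouse 1, with TMM factors, quantile normalization or edgeR, and at thresholds of 1 and 0.05. Cxcl5 had counts at its promoter peak of 488, 471 and 424 in the pancreas, 569.8, 746 and 740.1 in the lungs and 1206 and 964 in the liver. The 3 organs did not overlap there, and liver exceeded pancreas by 1.23 ± 0.20 (SE), adjusted p 0.000118. Liver also exceeded lungs (0.66 ± 0.20 (SE), adjusted p 0.011), a call that was lost without liver mouse 1 or lung mouse 1. Quantile normalization and thresholds of 1 and 0.05 also removed it. Cxcl5 had 6 of 19 peaks called higher in lungs than in pancreas and none lower, among them peak 13, 17109 bp upstream (189.6, 176 and 196 against 91.4, 84.0 and 64.8, 1.23 ± 0.26 (SE), adjusted p 0.00666). Cxcl3 was at 87.1, 139 and 119.5 in the pancreas, 186, 212 and 140.4 in the lungs and 216 and 198 in the liver at its promoter peak. Liver exceeded pancreas there without overlap (0.86 ± 0.27 (SE), adjusted p 0.0112). Cxcl1, the remaining well-known neutrophil attractant of this cluster on chromosome 5, was not called at its promoter peak in any organ comparison, with 899, 1046 and 1057 in the pancreas, 794, 1085 and 1054 in the lungs and 1176 and 1202 in the liver. Without 1 liver mouse the group's counts in liver against lungs fell to 6 higher (mouse 1 left out) or 6 lower (mouse 2 left out). The neighborhoods of Cxcl1, Cxcl2, Cxcl3, Cxcl5 and Cxcl15 were themselves more open in metastases, with medians of other genes' peaks within 1 Mb of 0.39 to 0.46 in liver against pancreas and 0.41 to 0.43 in lungs against pancreas. Without pancreas mouse 3 the 10 peaks higher in lungs than in pancreas became 5.

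The CXCR3 ligands Cxcl9 and Cxcl10, interferon-induced attractants of T cells and NK cells, had 10 peaks. Liver against pancreas gave 5 higher and 1 lower (all peaks 26.2% and 32.3%). Lungs against pancreas gave 4 higher and none lower (all peaks 6.59% and 10.7%). Liver against lungs gave 2 higher and 1 lower (all peaks 22.9% and 26.8%). At the Cxcl9 promoter peak the pancreas samples were at 92.2, 93.8 and 103, the liver samples at 222 and 260.5 and the lung samples at 249.5, 185 and 202. Both metastatic sites lay above the pancreas without overlap (1.31 ± 0.34 (SE), adjusted p 0.00357, and 1.12 ± 0.30 (SE), adjusted p 0.0231) and overlapped with each other. The Cxcl10 promoter peak was higher in liver than in pancreas by 0.60 ± 0.16 (SE), adjusted p 0.00405, close to the threshold. The call was lost without pancreas mouse 3, with TMM factors, quantile normalization or edgeR, and at thresholds of 1 and 0.05. The 216 peaks of other genes within 1 Mb of Cxcl10 had a median of 0.59 in the same comparison, about that of the promoter itself, and the 218 around Cxcl9 had 0.60.

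Of the other CXC and CX3C chemokines (49 peaks), Cxcl12 and Cxcl14 were open mainly in the pancreas. Cxcl12 encodes the ligand of CXCR4, made by stromal cells in many tissues, and Cxcl14 is a chemokine of epithelia. All 3 peaks of Cxcl12 were called lower in liver and in lungs than in pancreas, as were 9 (liver) and 8 (lungs) of the 9 peaks of Cxcl14. Over all peaks 32.3% (liver) and 10.7% (lungs) were called lower than in the pancreas. Peak 3 of Cxcl12 lies 99623 bp downstream of the start, close to the limit of the assignment. At the Cxcl14 promoter the counts were 140.1, 148 and 170.4 in the pancreas, 37.0 and 46.0 in the liver and 37.7, 19.6 and 43.9 in the lungs. Every pancreas sample exceeded every metastasis sample, by a log2 difference of -2.22 ± 0.45 (SE) in lungs (adjusted p 0.00469) and -1.86 ± 0.50 (SE), adjusted p 0.00475, in liver. The Cxcl12 promoter peak fell from 49.5, 58.1 and 88.9 in the pancreas to 23.4 and 19.5 in the liver and 3.68, 3.26 and 5.17 in the lungs. The lungs were the lowest of the 3 organs (-3.70 ± 0.52 (SE), adjusted p 0.000592, against the pancreas), and the call of liver against pancreas (-1.53) was lost without pancreas mouse 3 or liver mouse 2. Peaks of other genes within 1 Mb had medians of 0.00 (Cxcl12) and -0.10 (Cxcl14) in lungs against pancreas. All 5 fibroblast markers were also highest in the pancreas with Smad4 off. From pancreas to lungs the means of Cxcl12 (65.5 to 4.04) and Cxcl14 (153 to 33.75) fell, as did those of all 5 markers. Dcn, Pdgfra and Col1a2 fell by the values given above, while Col1a1 (1337 to 950) and Pdgfrb (423 to 256) fell less in proportion. In the pancreas with Smad4 on, Col1a2 (20.3) and Pdgfra (48.3) had lower means than with Smad4 off. Dcn (132), Col1a1 (1551), Pdgfrb (525.5), Cxcl12 (95.8) and Cxcl14 (211) had higher means there. The part of fibroblasts in these 2 loci was not tested.

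**Figure D3:**
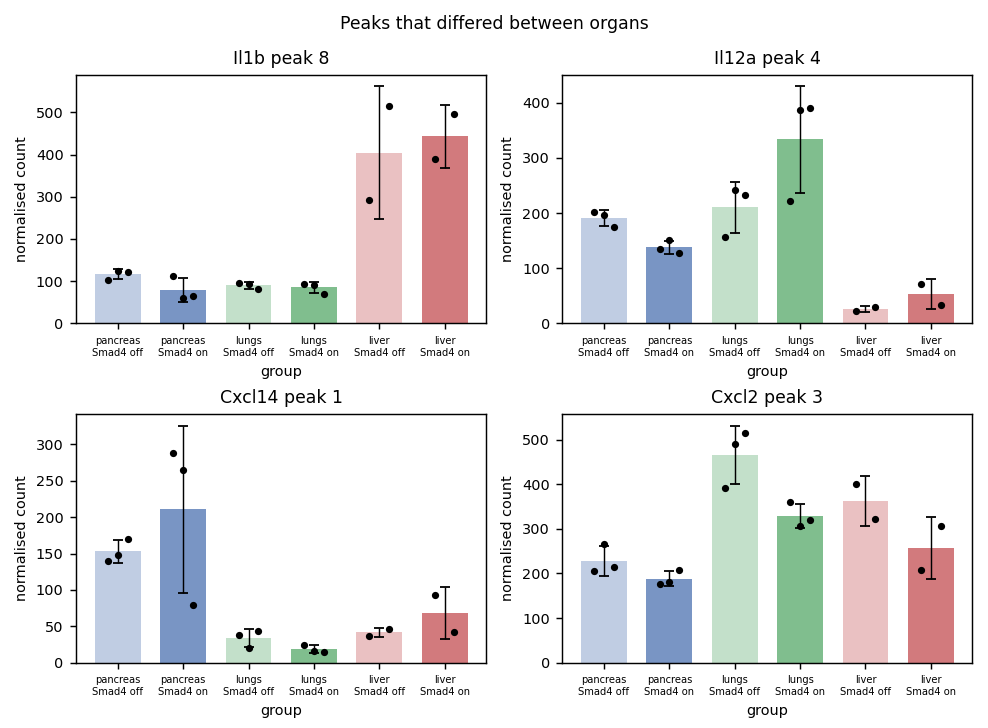
Normalized counts in each of the 16 mice at 4 peaks that differed between organs, with bars at the group mean and error bars of 1 SD. Il1b peak 8 is at 292 or more in all liver samples and at 125 or less elsewhere, Il12a peak 4 is lowest in the liver, and the highest means of Cxcl14 peak 1 and Cxcl2 peak 3 are in the pancreas with Smad4 on and in the lungs with Smad4 off.

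Cx3cl1, the membrane-bound chemokine fractalkine, and Cxcl17, a mucosal chemokine, were on the other side. Cx3cl1 had 6 of 9 peaks called higher in liver than in lungs and none lower, and its promoter peak was at 1665 and 1519 in liver tumors, 578, 1051 and 968 in lung tumors and 953, 889.7 and 898 in the pancreas. Both liver samples exceeded all others (0.92 ± 0.19 (SE), adjusted p 0.00108, against lungs), and lungs and pancreas overlapped. Cxcl17 had 6 of 11 peaks higher and 2 lower in liver than in lungs. Its promoter peak was higher in liver than in pancreas by 0.59 ± 0.15 (SE), adjusted p 0.00408, a call lost without pancreas mouse 3 or liver mouse 1. That call was also lost with TMM factors, quantile normalization or edgeR, and at thresholds of 1 and 0.05. Cxcl13, the B-cell attractant, had 2 higher and 9 lower of 17. Over all peaks 22.9% were called higher and 26.8% lower in liver than in lungs. For the other CXC and CX3C chemokines together, the 12 peaks lower in liver than in lungs became 4 without liver mouse 1.

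The inflammatory CC chemokines, which attract monocytes, eosinophils and T cells, were less open in liver tumors. Of 28 peaks 22 were called lower in liver than in lungs and none higher, with a median of -2.09 on the log2 scale, and 23 were lower than in the pancreas and none higher, with a median of -2.29. Lungs and pancreas were closer, with 3 higher and 4 lower (all peaks 6.59% and 10.7%). Over all peaks 26.8% were lower in liver than in lungs and 32.3% lower than in the pancreas. All 8 peaks of Ccl2, the main attractant of monocytes, were called lower in liver than in lungs, by 2.10 to 3.63 on the log2 scale, and none of the alternatives and no sample left out changed that count. At its promoter peak the liver samples were at 60.5 and 43.2, the lung samples at 119.7, 224 and 411 and the pancreas samples at 259.6, 333 and 483. Liver lay below both without overlap, and lungs and pancreas overlapped. Ccl8, which lies in the same cluster on chromosome 11, was at 8.64 and 11.2 in liver tumors, 203, 117 and 204 in lung tumors and 66.6, 96.5 and 167 in the pancreas at its promoter peak. The liver samples were again the lowest, with a difference of -3.98 ± 0.45 (SE), adjusted p 2.45e-05, from the lungs. Ccl7, a further monocyte attractant with a single peak, had 39.3, 61.6 and 82.4 in the pancreas against 13.8, 15.2 and 9.48 in the lungs and 8.64 and 1.39 in the liver. The pancreas samples lay above all others, with a difference of lungs from pancreas of -2.13 ± 0.48 (SE), adjusted p 0.00866. Its call in liver against lungs (-1.50) was lost under 5 alternatives, among them leaving out liver mouse 2. The difference was shared with the neighborhood: 71 peaks of other genes within 1 Mb of Ccl2 had a median of -1.88 in liver against lungs. Around Ccl9, which lies outside that window on the same chromosome, 142 such peaks had a median of 0.09. The peak nearest the start of Ccl11, the eosinophil attractant eotaxin, was at 13.7, 20.6 and 46.3 in the pancreas, 3.68, 2.17 and 4.31 in the lungs and 2.47 and 5.57 in the liver. It was low in both metastatic sites, with -2.52 ± 0.69 (SE), adjusted p 0.0257, for lungs against pancreas and -2.37 ± 0.77 (SE), adjusted p 0.0154, for liver against pancreas, calls that were lost without pancreas mouse 3 and without liver mouse 1.

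Ccl9, which attracts monocytes and lies in that second region, had 4 of 5 peaks called lower in liver than in lungs. Its promoter peak, whose window with 2 NF-kB matches is above, had 119.7 and 106 in liver tumors, 426, 362 and 415 in lung tumors and 348, 386 and 532 in the pancreas. Liver lay below the lungs without overlap, with a difference of -1.82 ± 0.26 (SE), adjusted p 9.78e-05, and lungs and pancreas overlapped. The nearest peaks of Ccl4 and Ccl5, which attract T cells and monocytes, lay over 1 kb from their starts and were also lower in liver than in lungs, with differences of -2.74 ± 0.57 (SE), adjusted p 0.0013, and -1.82 ± 0.51 (SE), adjusted p 0.00801. The Ccl5 call was lost without liver mouse 1. Ccl4 peak 1 was at 223, 71.7 and 119 in the lungs with mouse 1 the highest, and at 81.8, 78.0 and 299.7 in the pancreas with Smad4 on, where mouse 3 was the highest. These are the libraries that stood apart over all peaks.

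The CC chemokines of mucosa and lymphocytes went the other way. Of 39 peaks 15 were called higher and 6 lower in liver than in lungs (all peaks 22.9% and 26.8%). Against the pancreas the liver had 19 higher and 6 lower (all peaks 26.2% and 32.3%). Lungs against pancreas gave 5 higher and none lower (all peaks 6.59% and 10.7%). Ccl28, an epithelial chemokine that binds CCR10 and CCR3, had promoter counts of 231 and 212 in liver tumors, 21.2, 63.0 and 35.3 in lung tumors and 23.1, 28.6 and 11.1 in the pancreas. Both liver samples were above 200 and no other sample exceeded 64. The log2 difference was 2.58 ± 0.49 (SE), adjusted p 0.000666, from the lungs and 3.44 ± 0.49 (SE), adjusted p 5.18e-05, from the pancreas, and both were called under every alternative. Ccl20, the ligand of CCR6, had promoter counts of 485 and 323 in liver tumors, 93.9, 216 and 159 in lung tumors and 66.6, 99.2 and 73.2 in the pancreas. Liver exceeded lungs (1.41 ± 0.32 (SE), adjusted p 0.00236) and pancreas (2.32 ± 0.32 (SE), adjusted p 4.55e-05) without overlap, while lungs and pancreas overlapped. The smaller call of lungs over pancreas (0.91) was lost without pancreas mouse 1 or 3 or lung mouse 2 or 3. Ccl25, the ligand of CCR9 in gut and thymus, had 6 of 11 peaks higher in liver than in lungs and none lower. Its peak 11, 63809 bp downstream of the start, had 333 and 392 in the liver against 69.2, 59.0 and 63.9 in the pancreas, a difference of 2.48 ± 0.26 (SE), adjusted p 8.22e-06. The Ccl25 start itself lies in a peak assigned to Elavl1. The neighborhood of Ccl25 was also more open in the liver. There 120 peaks of other genes within 1 Mb had medians of 0.69 against lungs and 0.75 against pancreas. Around Ccl28 and Ccl20 such medians were 0.12 and -0.06 in liver against lungs. Ccl17, a ligand of CCR4, was the exception in this group, with 4 of 6 peaks lower in liver than in lungs. At its nearest peak the liver was at 46.9 and 26.5, the lungs at 56.1, 84.8 and 79.3 and the pancreas at 119, 117 and 106 (-1.01 ± 0.31 (SE), adjusted p 0.0141, for liver against lungs, lost without liver mouse 2). Ccl22, the other CCR4 ligand, had its nearest peak 9145 bp from the start, at 42.0 and 13.9 in the liver and 11.1, 11.6 and 11.1 in the pancreas, and it was not called. The 6 peaks of the group lower in liver than in lungs became 3 without liver mouse 2.

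The IL-1 family had 58 peaks, of which 18 were called higher and 13 lower in liver than in lungs (all peaks 22.9% and 26.8%). Against the pancreas 20 were higher and 11 lower (all peaks 26.2% and 32.3%). Il1a and Il18, which encode the alarmin IL-1 alpha and the inflammasome substrate IL-18, were more open in the liver at their promoters. At the Il1a promoter peak, whose AP-1 match lies just before the start, the liver samples were at 301 and 287, the lung samples at 41.4, 97.8 and 49.1 and the pancreas samples at 53.0, 68.8 and 34.3. The liver exceeded every other sample, by 2.31 ± 0.36 (SE), adjusted p 0.000189, over the lungs and 2.53 ± 0.36 (SE), adjusted p 5.58e-05, over the pancreas, and lungs and pancreas overlapped. Peak 10 of Il1a, 24673 bp upstream, was the peak with the smallest p among those higher in the liver (129.6 and 199 against 21.2, 28.3 and 25.0 in the lungs, 2.66 ± 0.35 (SE), adjusted p 6.35e-05). Il1a as a whole had 5 peaks higher and 1 lower of 11. In liver against lungs, 152 peaks of other genes within 1 Mb of Il1a had a median log2 fold change of -0.37, with peaks of the 46 genes, Il1b included, left out. Il18 had 4 of 7 peaks higher and none lower, with 486 and 550.3 in the liver against 125, 277 and 245 in the lungs at its promoter (1.34 ± 0.34 (SE), adjusted p 0.00498).

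Il1b, the secreted IL-1, was split by position. Peak 8, 36988 bp upstream, had 292 and 516 in liver tumors, 96.7, 92.4 and 81.0 in lung tumors and 102, 125 and 122 in the pancreas. Liver exceeded both without overlap (2.10 ± 0.30 (SE), adjusted p 9.27e-05, over the lungs). The peak nearest the Il1b start, 7875 bp downstream, was lower in the liver (27.1 and 22.3 against 143, 57.6 and 44.8, -1.51 ± 0.46 (SE), adjusted p 0.0136). Il1rn, the IL-1 receptor antagonist, was not called at its promoter with Smad4 off (1193 and 1406 in liver tumors, 1011, 1339 and 1514 in lung tumors and 969, 901 and 808 in the pancreas). Its intronic peak 4 had 129.6 and 167 in the liver against 23.1, 29.5 and 24.1 in the pancreas (2.49 ± 0.30 (SE), adjusted p 1.59e-05). Il33, a nuclear alarmin, had 3 peaks higher and 8 lower of 25. Its promoter peak was not called in any organ comparison with Smad4 off (657 and 535, 533, 632 and 638, and 506, 545 and 594 in liver, lungs and pancreas). Peak 5, 37818 bp upstream, was at 74.0 and 89.2 in liver tumors, 447, 268 and 319.7 in lung tumors and 324, 375 and 398 in the pancreas. The liver lay below both, with differences of -2.04 ± 0.23 (SE), adjusted p 2.25e-05, and -2.15 ± 0.23 (SE), adjusted p 8.16e-06. Over the family the 18 peaks higher in liver than in lungs became 12 without liver mouse 1.

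**Figure D4:**
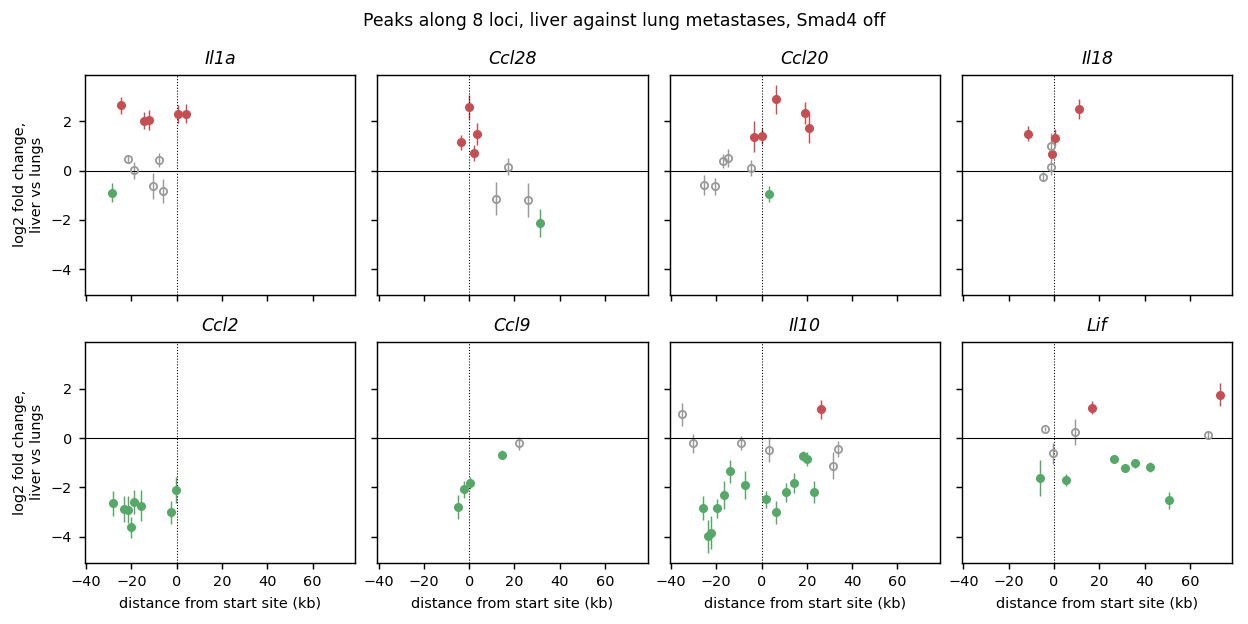
Log2 fold change of liver against lung tumors with Smad4 off at each peak of 8 loci, by distance of its midpoint from the start site in kb, with bars of 1 SE, red where called higher, green where called lower and open gray circles where not called. Calls above 0 gather near the starts of Il1a, Ccl28, Ccl20 and Il18, all 8 peaks of Ccl2 and 4 of 5 of Ccl9 are called below 0, and Il10 has 14 of 21 below 0.

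The gp130 cytokines IL-6, LIF and oncostatin M, which signal through a shared receptor chain to STAT3, had 27 peaks. In liver against lungs 5 were called higher and 11 lower (all peaks 22.9% and 26.8%). The Il6 promoter peak differed little, with 473 and 568 in liver tumors, 606, 448 and 642 in lung tumors and 599, 628 and 658 in the pancreas. No organ comparison called it. Distal peaks upstream of Il6 differed in opposite directions. Peak 4, 39295 bp upstream, was at 222 and 343 in the liver against 41.0, 58.1 and 43.5 in the pancreas (2.53 ± 0.35 (SE), adjusted p 4.03e-05), and peak 6, 12215 bp upstream, at 3.68, 4.35 and 6.89 in the lungs against 50.4, 61.6 and 81.5 in the pancreas (-3.46 ± 0.45 (SE), adjusted p 0.000401). At Lif, 7 of 13 peaks were lower and 2 higher in liver than in lungs, and peak 8, 31236 bp downstream, had the smallest p of the 401 in this comparison (1028 and 978 in the liver against 2163, 2072 and 2869 in the lungs, -1.22 ± 0.12 (SE), adjusted p 1.28e-05). Its exonic peak 4 was higher in lungs than in pancreas (250.4, 194 and 222 against 77.7, 109.9 and 96.3, 1.23 ± 0.22 (SE), adjusted p 0.00262). The Lif promoter peak was not called with Smad4 off (159 and 111.5 in liver tumors, 376, 144 and 159 in lung tumors and 124, 213 and 145 in the pancreas). The peak nearest Osm was at 16.04 and 13.9 in liver tumors, 81.9, 18.5 and 42.2 in lung tumors and 39.3, 29.5 and 42.6 in the pancreas, and its calls in liver against lungs (-1.37) and pancreas (-1.24) were each lost without either liver mouse. The 11 lower peaks of the group became 6 without liver mouse 2.

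The lymphoid cytokines IL-7, IL-15 and TSLP had 50 peaks, with 13 higher and 15 lower in liver than in lungs (all peaks 22.9% and 26.8%). None of the promoter peaks of Il7 and Il15 reached the fold threshold in liver against lungs, with log2 differences of 0.09 ± 0.14 (SE) and 0.54 ± 0.17 (SE). Tslp, whose product activates dendritic cells, had 9 of 14 peaks lower in liver than in lungs and none higher. Its nearest peak was at 54.3 and 69.7 in the liver and 357, 104 and 169 in the lungs (-1.57 ± 0.63 (SE), adjusted p 0.0501), with lung mouse 1 the highest, and lost its call without that mouse or either liver mouse. The count of 9 became 1 without liver mouse 1, and the group as a whole fell to 3 higher and 4 lower without that mouse. Around Tslp, 136 peaks of other genes within 1 Mb had a median of -0.51 in liver against lungs.

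In the IL-10 and IL-12 family 18 of 38 peaks were lower and 3 higher in liver than in lungs (all peaks 26.8% and 22.9%). Against the pancreas 20 were lower and 4 higher (all peaks 32.3% and 26.2%). Il10, an immunosuppressive cytokine, held most of them, with 14 of 21 peaks lower and 1 higher in both comparisons. At the intronic peak nearest its start the liver samples were at 25.9 and 43.2, the lung samples at 241, 116 and 247 and the pancreas samples at 172, 186 and 182. Liver lay below all others (-2.48 ± 0.35 (SE), adjusted p 8.76e-05, against lungs), while 199 peaks of other genes within 1 Mb had a median of 0.38. Il12a, the p35 subunit shared by IL-12 and IL-35, had peak 4, 27670 bp upstream with the AP-1 match shown above, at 22.2 and 29.3 in liver tumors, 157, 241 and 234 in lung tumors and 202, 197 and 174 in the pancreas. The liver was lower without overlap (-2.97 ± 0.32 (SE), adjusted p 2.01e-05, and -2.85 ± 0.32 (SE), adjusted p 1.23e-05). The intronic peak nearest the Il12a start was highest in the pancreas instead, at 61.5, 96.5 and 87.0 against 19.8 and 4.18 in the liver (-2.97 ± 0.71 (SE), adjusted p 0.00235). Il23a, the p19 subunit of IL-23, had its only peak at the promoter, and it was higher in the liver, at 522 and 539, than in the lungs, at 183, 306 and 262, or the pancreas, at 164, 333 and 194. The difference from the lungs was 1.11 ± 0.31 (SE), adjusted p 0.00867, and the groups did not overlap.

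The myeloid growth factors M-CSF (Csf1), GM-CSF (Csf2), G-CSF (Csf3) and IL-34 had 56 peaks. In liver against lungs 5 were higher and 20 lower (all peaks 22.9% and 26.8%). Against the pancreas 6 were higher and 16 lower (all peaks 26.2% and 32.3%). The Csf1 promoter peak was at 979, 1024 and 1040 in the pancreas, 935, 1034 and 987 in the lungs and 1128 and 1194 in the liver, and the Csf3 promoter peak at 488, 679 and 669, at 470.4, 546 and 656 and at 718 and 566. Neither was called in any comparison between organs with Smad4 off, nor was the Csf2 promoter peak. The calls lay at other sites. Il34, the second ligand of the M-CSF receptor, had 7 of 13 peaks lower in liver than in lungs and none higher, and its intronic peak 13 was at 54.3 and 48.8 in the liver against 220.3, 219.8 and 226 in the pancreas (-2.09 ± 0.23 (SE), adjusted p 1.07e-05). The peak nearest the Il34 start was not called, at 1993 and 1735 in the liver and 937, 1490 and 1390 in the lungs. Csf2 had 2 higher and 7 lower of 17, and Csf1 2 higher and 5 lower of 21. Without liver mouse 2 the 20 lower peaks became 13. The 1 peak of Tnf, 8193 bp wide and so covering more than that gene, was at 1605, 1829 and 1525 in the pancreas, 2315, 2611 and 2544 in the lungs and 3820 and 3315 in the liver, without overlap between organs (1.11 ± 0.15 (SE), adjusted p 4.53e-05, for liver against pancreas).

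With Smad4 on the same organ comparisons gave 51 higher and 87 lower for liver against lungs (34.4%; all peaks 35.8%, with 17.6% higher and 18.2% lower), 101 and 132 for liver against pancreas (58.1%; all peaks 59.4%, with 27.1% and 32.2%) and 66 and 55 for lungs against pancreas (30.2%; all peaks 27.8%, with 12.8% and 14.9%). The groups did not overlap at 56.6%, 67.3% and 43.4% of the members (all peaks 59.8%, 71.4% and 38.2%). In the last comparison, correction for GC content gave 94 higher and 47 lower, with the median over all peaks moved by 0.14. Thresholds of 1 and 0.05 gave 27 higher and 41 lower there. For liver against pancreas the GC correction gave 121 higher and 122 lower, with a median of 0.07 against 0.01 over all peaks. The inflammatory CC chemokines again had no peak higher in the liver, with 16 of 28 lower than in lungs and 24 lower than in the pancreas. The former count depended on liver mouse 2 with Smad4 on, without which 1 peak was called, and the total of liver against lungs became 49. Without pancreas mouse 3 with Smad4 on, lungs against pancreas gave 146 calls. Il1a had 5 peaks higher and 1 lower than in lungs, and its promoter peak was at 254 and 321 in the liver against 61.8, 63.3 and 39.2 in the lungs and 48.9, 45.8 and 41.4 in the pancreas. Il1b peak 8 was at 390.2 and 496 in the liver against 93.2, 92.0 and 70.0 in the lungs (2.37 ± 0.30 (SE), adjusted p 8.71e-05). Both peaks were thus higher in the liver without overlap in either Smad4 state. Ccl28 stood at 126 and 125 in the liver against 21.3, 17.2 and 16.8 in the lungs, and Il12a peak 4 at 72.2 and 33.5 against 222, 387 and 391. At the Cxcl14 promoter the pancreas was at 289, 265 and 79.0, the liver at 93.2 and 42.6 and the lungs at 24.7, 15.3 and 14.9. Pancreas mouse 3 was lower than the other pancreas samples there and below liver mouse 1, and lungs against pancreas gave -3.28 ± 0.45 (SE), adjusted p 0.00042. The same mouse was the lowest at Cxcl12 peak 3 (231, 255 and 65.2) and Csf1 peak 18 (144, 115 and 36.8), where the lungs were at 16.9, 6.71 and 9.33 and at 8.98, 1.92 and 1.87. Promoter peaks without a call with Smad4 off were called here at Il1rn, Il33, Csf2, Lif and Cxcl15. Il1rn was at 612, 572 and 1095 in the pancreas, 1293 and 1566 in the liver and 1134, 1377 and 1700 in the lungs. The pancreas was lowest without overlap (0.97 ± 0.24 (SE), adjusted p 0.00274, for liver and 0.93 ± 0.21 (SE), adjusted p 0.00535, for lungs against pancreas). The Il33 and Csf2 promoter peaks were higher in lungs than in pancreas, by 0.88 ± 0.14 (SE), adjusted p 0.000792, and 0.84 ± 0.18 (SE), adjusted p 0.0039. The Lif promoter peak was lower in liver than in lungs (-0.93 ± 0.42 (SE), adjusted p 0.0987), a call lost under 14 alternatives, 11 of which left out 1 sample. Further peaks of the liver with Smad4 on were Il1a peak 7 (228 and 254, against 47.2, 59.4 and 33.6 in the lungs and 29.3, 35.9 and 23.0 in the pancreas), higher without overlap, and Il34 peak 11 (547 and 438, against 1070, 1013 and 1168 and 1237, 1129 and 1019), lower without overlap. Csf2 peak 10, next to the peak described below, was at 624 and 582 in the liver and 1450, 1362 and 1187 in the pancreas (-1.14 ± 0.13 (SE), adjusted p 9.77e-06), and Il15 peak 4 at 360.5, 452 and 574 in the lungs and 155, 194 and 186 in the pancreas (1.35 ± 0.22 (SE), adjusted p 0.000925).

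Restoration of Smad4 changed few of these loci. In the pancreas 2 peaks were called higher and 10 lower (2.99%; all peaks 3.42%, with 0.364% higher and 3.06% lower), in the liver 1 was called higher and none lower (0.249%; all peaks 0.55%, with 0.462% and 0.0886%), and in the lungs none was called (all peaks 0.00366%). In the lungs 28 had an unadjusted p under 0.05 (6.98%; all peaks 7.11%), and edgeR and DESeq2 on the recovered reads also called none. Averaged over the 3 organs, 13 were higher and 14 lower (6.73%; all peaks 6.62%, with 3.61% and 3%). Without regard to the test, the 2 states did not overlap at 21.9% (pancreas), 46.6% (liver) and 8.23% (lungs) of the members (all peaks 25.5%, 44.6% and 10.7%). The 10 lower peaks in the pancreas were 2 each of Cx3cl1, Cxcl5 and Il15 and 1 each of Cxcl13, Cxcl15, Il33 and Csf1. The count in the pancreas was 5, 1 and 5 without pancreas mouse 1, 2 or 3 with Smad4 off, 7 and 6 without mouse 1 or 2 with Smad4 on, and 24 and 21 without lung mouse 1 or 2 with Smad4 off, which enter only through the shared estimate of spread. The count in the liver lay between 0 and 14, the latter without liver mouse 2 with Smad4 on.

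Csf2 peak 11 was called in the pancreas and was the 1 member peak called in the liver. It lies at chr11:54216020-54218302, 32506 bp downstream of the start of the GM-CSF gene. In the pancreas it was at 588, 734 and 562 with Smad4 off and 1011, 979 and 1129 with Smad4 on. The groups did not overlap, and the rise was 0.73 ± 0.15 (SE), adjusted p 0.0256. In the liver it was at 289 and 286 off and 561 and 468 on (0.83 ± 0.18 (SE), adjusted p 0.0867), again without overlap. In the lungs it was at 779.7, 596 and 923 off and 1157, 1018 and 979 on, also without overlap, and the log2 difference of 0.48 ± 0.15 (SE), adjusted p 0.494, was not called. The mean over organs was 0.68 ± 0.09 (SE), adjusted p 0.00276. The pancreas call was lost without pancreas mouse 1 or 3 with Smad4 off (adjusted p 0.105 and 0.103), and the liver call was lost under 18 of 28 alternatives, 11 of which left out 1 sample, with adjusted p from 0.0107 to 0.548 over all of them. The Csf2 promoter peak did not follow, with 297, 336 and 270.4 off and 236, 218 and 362 on in the pancreas.

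**Figure D5:**
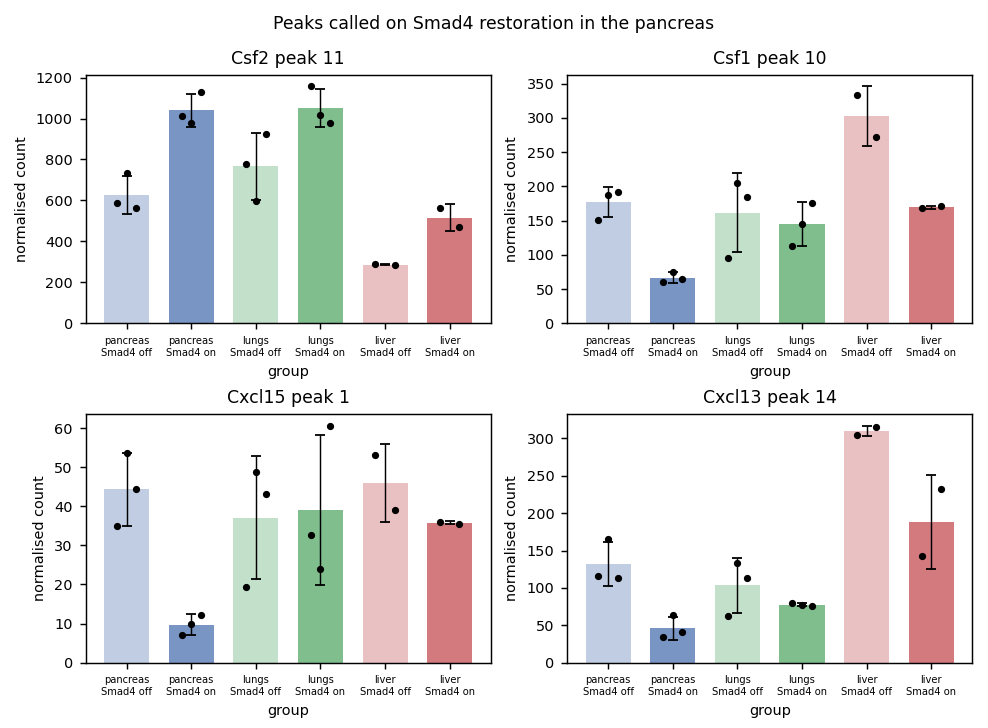
Normalized counts in each of the 16 mice at 4 peaks called on Smad4 restoration in the pancreas, with bars at the group mean and error bars of 1 SD. Csf2 peak 11 is higher with Smad4 on in all 3 organs by mean, and the other 3 are lower with Smad4 on in the pancreas without overlap.

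Csf1 was called in both directions. Peak 10, 6417 bp upstream, was at 151, 188 and 192 off and 60.5, 75.5 and 64.4 on (-1.39 ± 0.26 (SE), adjusted p 0.0194). In the liver it was at 333 and 272 off and 168 and 171 on (-0.83 ± 0.32 (SE), adjusted p 0.31, not called). Peak 16, 36339 bp upstream, was at 167, 204 and 176 off and 247, 277 and 375 on (0.70 ± 0.20 (SE), adjusted p 0.0937), a call lost under 19 alternatives, 14 of which left out 1 sample. Neither peak overlapped between states in the pancreas. At the promoter of Cxcl15, a neutrophil attractant also known as lungkine, the counts were 35.01, 53.6 and 44.5 off and 7.11, 9.90 and 12.3 on, a fall by 2.08 ± 0.40 (SE) on the log2 scale (adjusted p 0.0197). It was at 19.3, 48.9 and 43.1 off and 32.6, 24.0 and 60.6 on in the lungs, where the states overlapped. Cxcl13 peak 14, 52257 bp downstream, was at 116, 165 and 113 off and 33.8, 63.1 and 41.4 on (-1.52 ± 0.30 (SE), adjusted p 0.0225). The calls of Csf1 peak 10, Cxcl15 and Cxcl13 peak 14 were each lost without pancreas mouse 2 with Smad4 off. The Il33 promoter peak was at 506, 545 and 594 off and 375, 306 and 380.2 on (-0.63 ± 0.14 (SE), adjusted p 0.0361), lost without pancreas mouse 2 or 3 off or mouse 2 on. In the lungs it was at 533, 632 and 638 off and 550.3, 707 and 707 on, with overlap.

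In the mean over organs, 3 start-site peaks were called. The peak nearest Il10 was higher by 0.67 ± 0.19 (SE), adjusted p 0.0522, with 172, 186 and 182 off and 307, 322 and 294 on in the pancreas and 25.9 and 43.2 off and 109.5 and 50.8 on in the liver. States did not overlap in those organs, and they overlapped in the lungs. The call was lost without liver mouse 1 of either state, lung mouse 2 off or lung mouse 1 on. The peak nearest Cxcl13 (0.73 ± 0.24 (SE), adjusted p 0.0868) and the Cxcl15 promoter peak (-0.78 ± 0.25 (SE), adjusted p 0.0751) lost their calls under 21 and 12 alternatives, 14 and 10 of which left out 1 sample. The mean over organs had 57 and 16 calls without lung mouse 1 or 2 with Smad4 off, and 10 and 11 without liver mouse 1 with Smad4 off or on.

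Whether restoration acted differently between organs was tested by interaction terms, and limma called no peak in any of the 3 pairs (all peaks: 0%). The peaks with an unadjusted p under 0.05 numbered 30 for liver against lungs (7.48%; all peaks 5.25%), 14 for liver against pancreas (3.49%; all peaks 3.95%) and 47 for lungs against pancreas (11.7%; all peaks 11%). edgeR called none in the 3 pairs and DESeq2 6 in lungs against pancreas, and limma called 14 there without lung mouse 2 with Smad4 off. With the mouse number as a block over all organs, lungs against pancreas had 1 call, and 0 with GC correction. No label says that the numbers mark pairs of samples. A block in the lungs alone was chosen after seeing the data. With it lungs against pancreas had 9 calls. The difference (lungs minus pancreas) was positive at 8 of them (88.9%, against 72.8% of all peaks called in that fit). These were Csf1 peak 10 (1.28), Cx3cl1 peaks 3, 7 and 8 (0.66, 1.02 and 0.89), Cxcl5 peak 11 (1.30), Cxcl15 peak 1 (2.15), Il15 peak 22 (0.99) and Il33 peak 22 (0.75), and Tslp peak 14 (-2.95) was negative. At the 8 the change without the block was between -2.08 and -0.37 in pancreas tumors and between -0.11 and 0.29 in lung tumors, so that the values lay lower with Smad4 on in the pancreas and near the Smad4 off values in the lungs. At Tslp peak 14 it was 0.80 in the pancreas and -2.15 in the lungs. The same block raised the calls in the pancreas to 27 (3 higher, 24 lower) and in the liver to 7 (5 higher, 2 lower), with 0 in the lungs. The 9 were named after their values were seen.

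The receptors of these signals and the regulators of NF-kB and cytokine signaling were counted beside them. Receptors (275 peaks at 35 of 36 genes) had 29 higher and 121 lower in liver than in lungs (54.5%), with a median of -0.63. The regulators (234 peaks at 20 genes) had 60 in each direction (51.3%), with a median of 0.10. Over all peaks 49.7% were called in that comparison, 22.9% higher and 26.8% lower, with a median of 0.00. On restoration the receptors had 3.64% called in the pancreas and 1.45% in the liver, and the regulators 4.7% and 0% (all peaks 3.42% and 0.55%). In the central 200 bp of the peaks, AP-1 matches were found in 40.8% of the member peaks lower in liver than in lungs and in 17% of those higher (all peaks: 44.9% and 15.6%). RUNX matches were found in 29.2% and 10.2% (all peaks: 25.1% and 15.4%). KLF matches were found in 11.5% and 17% (all peaks: 15.3% and 25%), and ISRE in 3.08% and 2.27% (all peaks: 2.62% and 2.54%). For NF-kB the shares were 14.6% (19 of 130) and 6.82% (6 of 88), against 12.5% and 13.8% over all peaks. Called or not, member peaks held NF-kB matches as often (14.2%) as all peaks (14.1%), in contrast to the promoter windows given above.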

How the data were processed

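Cells positive for mKate2 were profiled by ATAC-seq in 16 mice. Per the submitters' methods, reads were trimmed with trimGalore and cutadapt, aligned to mm10 with Bowtie2, peaks were called with MACS2, filtered against a blacklist and merged into 1 atlas, and reads were counted with featureCounts. A transposase shift and the removal of duplicates are not given in the sources used here. The deposited signal is the read count per peak divided by size factors of DESeq2, made by the authors. Whole reads were recovered for 100% of values (tolerance 0.01), 22.5 to 37.5 M per sample. The mitochondrial row, 1.43% to 3.56% of reads, was left out.

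Peaks were assigned with GENCODE vM21 to the nearest protein-coding start site within 100 kb. limma 3.58.1 (R 4.3.3) was fitted to log2(normalized count + 1) over all 136630 peaks and all 6 groups, with the trend and robust options, and p-values were adjusted by the Benjamini-Hochberg method over all peaks. Fold changes are on that scale and understate changes of low peaks. A call required a log2 difference of 0.58 or more in size with an adjusted p of 0.1 or less. Peaks were named as the peak nearest each start site and, in each comparison, the 3 called peaks of smallest p per direction whose replicates did not overlap. edgeR 4.0.16 and DESeq2 1.42.0 on recovered reads, other scalings, filters, thresholds, a GC correction, a replicate block and leaving out each mouse were alternatives. The scripts were tested on simulated data.

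Mouse numbers are shared between Smad4 states. Deviations of same-numbered mice from their group means correlated at -0.33, 0.03 and -0.33 in the pancreas and 0.08 in the liver. In the lungs they correlated at 0.49, 0.12 and 0.21, the highest values. No label says that the numbers mark pairs of samples. The blocked fit of the lungs was chosen after seeing the data. One allele that all groups share is not reported here. The genes and lists were chosen with earlier results of these data known.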

Additional observations from a re-analysis of the deposited data

How the results depend on the processing

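Of 157 named fold changes, 89 were called under every one of the 28 alternatives that tested them. The filter on a mean count of at least 20 tested 148 of the 157, and the fit of the groups compared only tested 154. Over 4384 values none reversed and 267 were no longer called. Leaving out 1 mouse gave 155 to 233 calls among the 401 peaks for liver against lungs, 195 to 236 for liver against pancreas and 39 to 84 for lungs against pancreas with Smad4 off, and 49 to 151, 156 to 244 and 89 to 146 with Smad4 on. It gave 1 to 24 for restoration in the pancreas, 0 to 14 for the liver, 0 to 0 for the lungs, 10 to 57 in the mean over organs, and 0 to 14 for the difference in restoration between lungs and pancreas. For lungs against pancreas, thresholds of 1 and 0.05 gave 43 with Smad4 off (16 higher, 27 lower) and 68 with Smad4 on (27 higher, 41 lower). For restoration they gave 4 (pancreas), 0 (liver) and 5 (mean over organs). Restoration in the pancreas had 24 calls with quantile normalization, 19 in a fit of the groups compared only, 7 with GC correction and 29 with DESeq2. In the liver it had 2 with a mean count of at least 20, 5 with TMM factors, 0 with quantile normalization, 0 with the groups compared only, 0 with GC correction and 13 with DESeq2. For the difference between lungs and pancreas DESeq2 gave 6. The cause of these differences was not tested.

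With the replicate block over all organs, restoration had 20 calls in the pancreas and 0 in the liver, and the difference between lungs and pancreas had 1. With the block and GC correction together the counts were 22 and 0. With the block in the lungs alone, chosen after seeing the data, they were 27, 7 and 9. GC correction moved the median over all peaks by 0.14 in liver against pancreas with Smad4 off and by -0.11 in the difference in restoration between liver and lungs, and quantile normalization moved it by 0.11 in lungs against pancreas with Smad4 on. GC correction gave 8 higher and 18 lower for the mean over organs, and quantile normalization 8 and 14. With 2 liver mice in each state, the liver counts rest on few samples. Peaks assigned by distance may belong to other genes.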
